A study of Mus musculus with 36 samples.

Results

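The cells described here are rare duct cells of the mouse submandibular salivary gland that carried transcripts of both Duoxa2 and Duox2. They were taken from 26 Drop-seq libraries, each 1 gland, as cells with 100 or more detected genes and under 15% mitochondrial transcripts in which at least 2 of the 3 markers Duoxa2, Duox2 and Gp2 had a UMI (a unique molecular identifier, which counts 1 captured transcript) and in which Bmp2, Bmp4, Krt14 and Krt5 had none. The rule picked 93 of 23346 cells, 39 of 10743 from control glands and 54 of 12603 from double-mutant glands. All 93 held both Duoxa2 and Duox2. Gp2, which was named as a marker of these cells too, had 0 UMIs in the 93 cells, which allows a share of up to 3.23% of cells with a UMI. Gp2 was found in 75 other cells, 72 of them double-mutant, and 53 of the 75 were in the cluster named cancer stem cell-like. The 93 cells are therefore called Duoxa2+ Duox2+ cells.

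Double-mutant mice carried K14Cre, a beta-catenin gain-of-function (GOF) allele and a Bmpr1a loss-of-function (LOF) allele, so that Wnt signaling is raised and Bmp signaling lowered where keratin 14 has been expressed. Glands of these mice form tumors. Control mice, most of them labelled wildtype, carried K14Cre and an EYFP reporter at the R26 locus, which the double mutants carried as well. All mice were C57BL/6. Glands came from 6 control and 7 double-mutant mice at postnatal day 40 (P40) and from 6 control and 7 double-mutant mice at P90, of either sex, and cells were sorted alive and fixed in methanol. Libraries held between 777537 and 7013325 UMIs. In 2 double-mutant libraries, P40 replicate 1 and P90 replicate 5, the sex-linked genes went against the labelled sex, and the share and gene comparisons were repeated without them.

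Duox2 is a dual oxidase, an enzyme of the luminal cell surface that releases hydrogen peroxide. Duoxa2 is its maturation factor, without which the oxidase does not leave the endoplasmic reticulum. The pair is best known from the thyroid, where the peroxide serves hormone synthesis, and from airway and salivary ducts, where lactoperoxidase (Lpo) uses peroxide to oxidize thiocyanate into an antimicrobial product. Striated ducts of the salivary gland reabsorb sodium from saliva and secrete the kallikrein Klk1.

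Both genes lie head to head on chromosome 2. In the RefSeq annotation of GRCm38.p6, Duox2 runs on the minus strand from 122279246 to 122298740 and Duoxa2 on the plus strand from 122298900 to 122302885, so that 159 bases separate their start sites. Next on the chromosome follow Duoxa1 on the minus strand (122303540 to 122313763) and Duox1 on the plus strand (122313010 to 122347972), a second pair with the opposite order. In the GENCODE annotation of the same build Duoxa1 reaches down to 122302191 and so overlaps the 3′ end of Duoxa2. Whether counting used the strand was not given in the sources used here, so that Duoxa1 counts are uncertain. That intergenic stretch, chr2:122298741-122298899, is printed on the plus strand because the 2 genes that define the cells share it as upstream sequence. Capitals mark matches to the letters TATAAA and GGGCGG, searched on both strands.
Duox2-Duoxa2 stretch: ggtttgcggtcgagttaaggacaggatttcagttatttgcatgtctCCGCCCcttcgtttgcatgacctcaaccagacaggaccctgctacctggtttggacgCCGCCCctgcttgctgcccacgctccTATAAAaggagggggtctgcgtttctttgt
The single TATAAA started 30 bases before the Duoxa2 start and on its strand, a match that 7.95% of 32851 promoters hold. GGGCGG matched 2 times on the minus strand (29.2% of promoters), and CCAAT did not occur in the window (25.4% of promoters). GC content was 54.7%, against a median of 52.4% in the 250 bases before the start of all genes. Promoters were searched for these letters over the 159 bases before each start, a window as long as this stretch. A match describes letters and is not a binding site.

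A Duoxa2+ Duox2+ cell held between 1 and 69 Duoxa2 UMIs (median 5) and between 1 and 12 Duox2 UMIs (median 2). These values chose the cells and are given without a test. Duoxa2 was the more abundant of the pair in 66 cells and Duox2 in 14. Together the 93 cells held 760 of 1041 Duoxa2 UMIs (73.0%) and 273 of 367 Duox2 UMIs (74.4%) of all cells, so most of the pair's captured transcripts were in these cells. At the edge of the rule, 7 cells had just 1 UMI of each gene, and 18 had 3 UMIs or fewer of both together. Just outside it were 79 cells with Duoxa2 alone (median 1 UMI) and 39 with Duox2 alone (median 1 UMI). A further 12 cells passed the markers but had a UMI of Krt14 (10 cells), Krt5 (5) or Bmp4 (1), and 15 passed all but the mitochondrial limit.

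Cyp2f2, a cytochrome P450 enzyme, was listed as a marker but not used in the rule. It was found in 87 of the 93 cells (93.5%) with a median of 5 UMIs. It was in 73.7% of the 118 cells with Duoxa2 or Duox2 alone, and in 23.7% of all other cells. Among the other cells of the striated duct Klk1+-like cluster described below, 74.1% had Cyp2f2. All 12 cells set aside for a keratin or Bmp4 UMI had it too. Duoxa2+ Duox2+ cells had a median of 1442 UMIs against 1529 in other cells, more genes (726 against 486) and a higher mitochondrial share (7.92% against 2.73%). No barcode of these cells occurred in a second library, whereas 14 barcodes did among all cells.

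Cells were present in 23 of 26 glands, from 1 to 12 per gland. In control P40 glands the counts for replicates 1 to 6 were 2, 4, 3, 2, 1 and 7 cells, a share between 0.105% and 0.872% of cells with a median of 0.248%. In control P90 glands they were 4, 9, 2, 0, 4 and 1, a share between 0 and 0.907% with a median of 0.34%. Replicates 1 to 7 of double-mutant P40 held 6, 1, 6, 12, 1, 2 and 8 (0.14% to 1.2%, median 0.58%), and those of double-mutant P90 held 0, 4, 1, 0, 3, 6 and 4 (0 to 0.66%, median 0.248%). The groups overlapped over almost their whole range. The highest gland was double-mutant P40 replicate 4 with 1.2% (95% Clopper-Pearson interval 0.62% to 2.08%), and for the 3 glands without such a cell a count of 0 allows shares of up to 0.281% (double-mutant P90 replicate 1), 0.35% (double-mutant P90 replicate 4) and 0.432% (control P90 replicate 4). Intervals and limits cover counting error only.

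**Figure D1:**
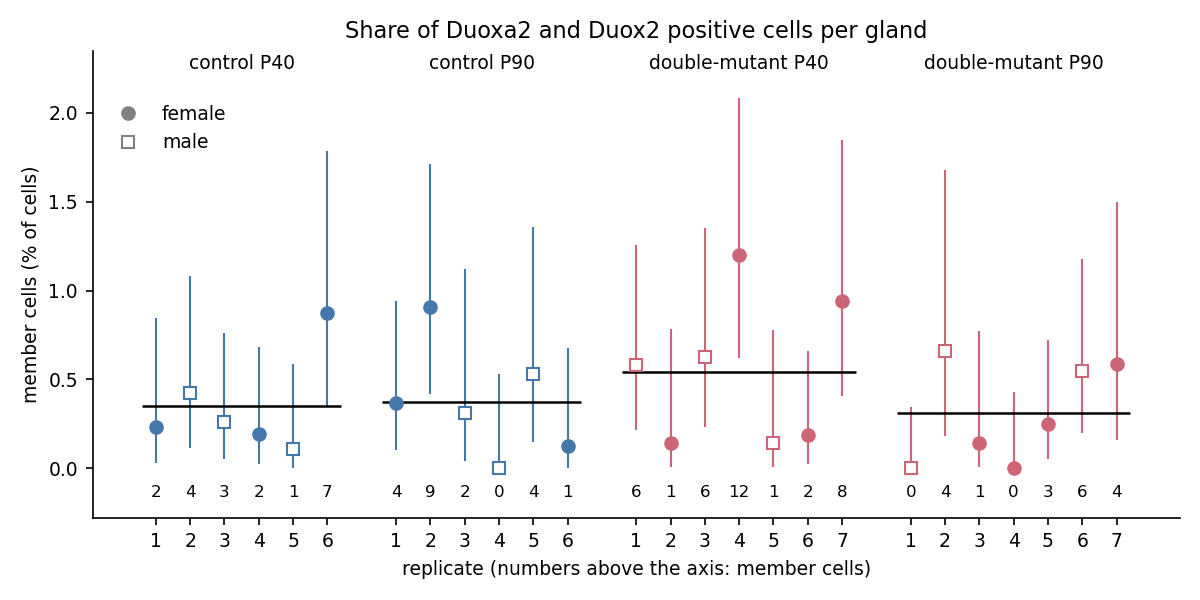
Share of Duoxa2+ Duox2+ cells among all cells (%) in each of 26 glands, by group and replicate, with 95% Clopper-Pearson intervals, the number of cells below each point and the group mean as a line. The lowest gland of a group lies between 0 and 0.14% and the highest between 0.66% and 1.2%, and the groups overlap.

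To see which cell type they belong to, all cells were clustered with the genes of the rule and Cyp2f2 left out. Of the 93 Duoxa2+ Duox2+ cells, 78 (83.9%) fell into 1 of 27 clusters, which held 2342 cells and was named striated duct Klk1+-like from Klk1, Fxyd2, Krt7, Atp1b1 and Scnn1a. They made up 3.33% of it. Under other settings of the clustering, from 43 to 79 of the 93 fell into the cluster that held most of them. When the rule's genes were kept, 85 gathered in a cluster of 117 cells, whose 32 other cells all had a UMI of Duoxa2 or Duox2, so that this small cluster restates the rule. The striated duct Klk1+-like cluster had a median mitochondrial share of 9.45%, above that of the Duoxa2+ Duox2+ cells.

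The other 15 cells were spread over 8 clusters, and 13 of them were from double-mutant glands, as were 41 of the 78 in the striated duct Klk1+-like cluster. Of the 15, 5 were in the luminal Clu+ tumor-like cluster, all double-mutant, 3 in a basal-like and myoepithelial-like cluster, 2 in an unnamed cluster, and 1 each in basal-like, immune-like, endothelial-like, luminal Dcpp+-like and duct progenitor-like clusters. Their depth was similar (median 1459 UMIs against 1408), with a median of 3 Duoxa2 UMIs against 5.5. In the same 15 cells, 13 had Cyp2f2, 13 had Cat, 13 had Wfdc2, 13 had Klk1 and 14 had Krt7. Duoxa2 had a UMI in 0.115% of immune-like cells (median 637 UMIs) and in 0.196% of endothelial-like cells (median 726), types that should lack it, against 5.3% of striated duct Klk1+-like cells (median 1275). Doublets were not called, and their part in the 15 cells was not tested.

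**Figure D2:**
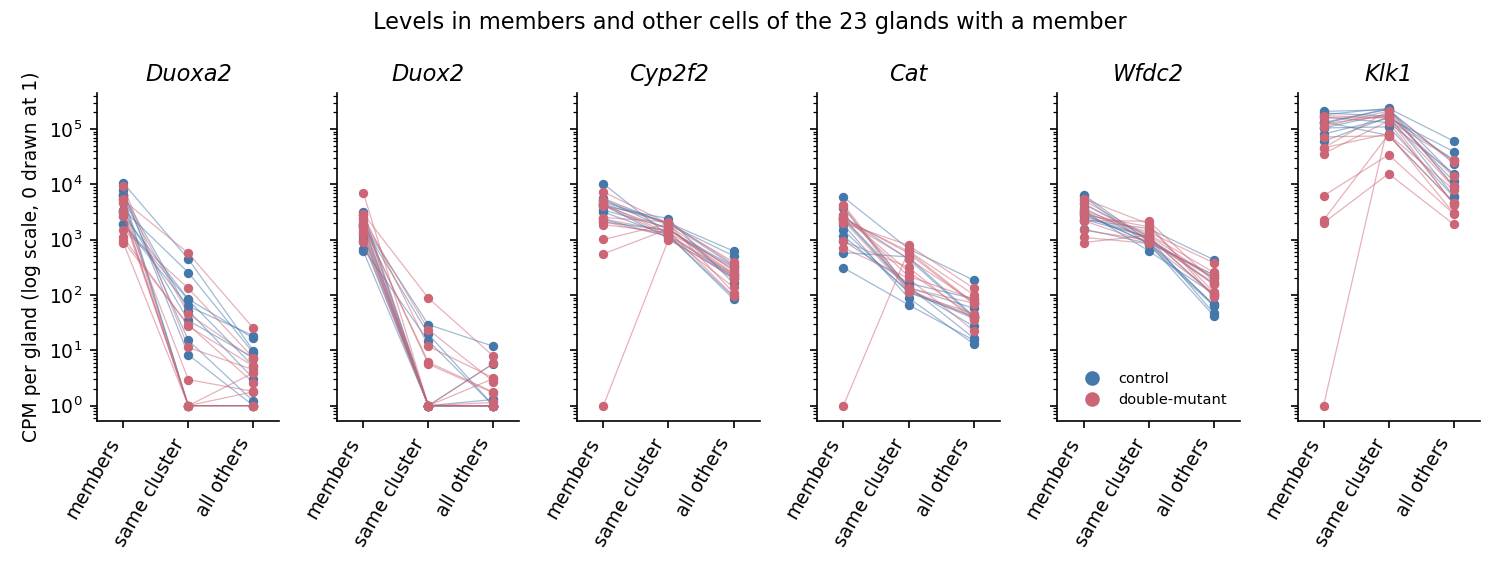
Level of 6 genes in the Duoxa2+ Duox2+ cells (members), in the other cells of the striated duct Klk1+-like cluster (same cluster) and in all other cells of the same gland, as CPM (UMIs of a gene per 1000000 UMIs, log scale), 1 point per gland for the 23 glands with such a cell, joined by lines, colored by genotype and with 0 drawn at 1. Duoxa2, Duox2 and Cyp2f2 are the rule's genes and a marker named with them. Cat is higher than in the same cluster in 22 of 23 glands and Klk1 in 5 of 23.

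The transcriptome of the 93 cells was described by adding their UMIs (154802 in all) and comparing CPM with those of the 20635 other cells in the 23 glands. Since cells were chosen by their own transcripts, this is a description without a test. Of 14273 genes with 50 or more UMIs, the genes of the rule left out, 27.9% were 2-fold or more higher and 2.34% 2-fold or more lower (with 10 CPM added to both sides), and 6.05% and 3.33% were so against the other 2078 cells, in these glands, of the striated duct Klk1+-like cluster. The 25 genes with the largest ratio were all above their level in that cluster too, by 2.96-fold or more. With 10 CPM added, a gene under 10 CPM in the comparison cells cannot be called 2-fold lower. In the 93 cells 1 UMI is worth 6.46 CPM, so a few UMIs can make such a gene 2-fold higher. The shares of higher and lower genes therefore cannot be set against each other.

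Catalase (Cat), the peroxisomal enzyme that breaks down hydrogen peroxide, was the broadest but one of the 25 genes. It was detected in 83 of 93 cells (89.2%) and in 9.03% of other cells. Its level was 2739 CPM in Duoxa2+ Duox2+ cells, 227 CPM in the same cluster and 41.9 CPM in all others, a 12.1-fold and a 65.3-fold ratio. Per gland the level ran from 0 to 5887 CPM (median 2275). The gland at 0, double-mutant P40 replicate 5, contributed 1 cell, and in the other 22 glands Cat was above the same cluster. Cells with Duoxa2 or Duox2 alone had an intermediate level of 575 CPM, and the 12 cells set aside for Krt14, Krt5 or Bmp4 reached 2126 CPM.

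Sptssb, a small subunit of the enzyme that starts sphingolipid synthesis, had the largest ratio, 314-fold over all other cells and 68.2-fold over the same cluster, but was detected in only 22.6% of the cells, and 13 of 23 glands were at 0. Hsd11b1, a reductase that regenerates active glucocorticoid, was detected in 48.4% of cells and was 17.4-fold over the same cluster. Srd5a1, which converts testosterone to dihydrotestosterone, was detected in 29% and was 24.3-fold over it. Alox12, a lipoxygenase, and Ces1d, a carboxylesterase, were detected in 41.9% and 54.8% and were 5.54-fold and 4.08-fold over the same cluster.

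Slc5a5, the sodium-iodide symporter, was detected in 17.2% of Duoxa2+ Duox2+ cells (16 of 93) and in 0.383% of other cells, a 103-fold ratio. Muc1, a membrane mucin, was detected in 17.2% and Krt19, a keratin of luminal epithelium, in 26.9%, each 13.7-fold or more over the same cluster. The potassium channel genes Kcnj15 and Kcnj16 and the sodium channel subunit Scnn1a were detected in 34.4%, 33.3% and 37.6%. Wfdc2, a secreted whey acidic protein, was the broadest, with 92.5% of cells and a level above that of all other cells in 23 of 23 glands (888 to 6517 CPM, median 3001), although 64.9% of the same cluster had it as well.

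Of the remaining leading genes, Duoxa1, the neighbor of Duoxa2 and maturation factor of Duox1, had 11 UMIs in 10 of the 93 cells against 22 UMIs in 20635 other cells, 2 of these in the same cluster. Since its 3′ end overlaps that of Duoxa2, these UMIs may be split between both genes. Its partner Duox1 had 0 UMIs in the 93 cells. F5 (coagulation factor V), Sord (sorbitol dehydrogenase), Coro6 (a coronin), Hpn (the protease hepsin), Pcolce (a procollagen-processing enhancer), the glutathione transferases Gsta3 and Gstm1, Pgap1 (a lipid-anchor remodeling enzyme), Ptprd (a receptor phosphatase) and Bace2 (an aspartyl protease) were also among the 25. They were found in between 10.8% (Coro6) and 66.7% (Gstm1) of cells. By genotype, Cat was detected in 87.2% of control and 90.7% of double-mutant cells and Wfdc2 in 94.9% and 90.7%. The widest gaps among the 25 genes were those of Ces1d (66.7% and 46.3%), Kcnj15 (43.6% and 27.8%), Srd5a1 (20.5% and 35.2%) and F5 (10.3% and 24.1%), given without a test since cells of a gland are not replicates.

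**Figure D3:**
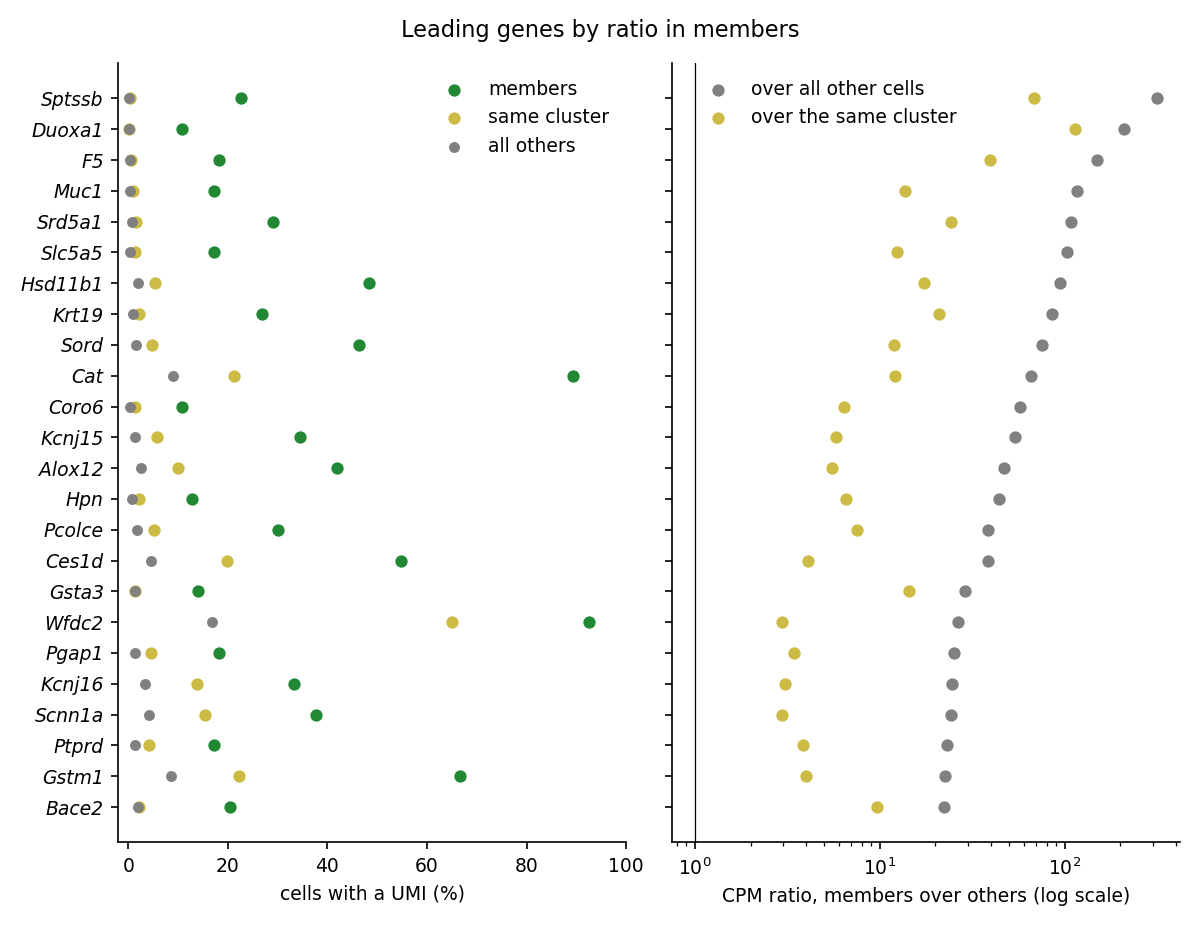
Left, share of cells with a UMI (%) in Duoxa2+ Duox2+ cells (members), the other cells of the striated duct Klk1+-like cluster and all other cells, for leading genes by ratio. Right, their CPM ratio (log scale) over all other cells and over the same cluster. Only Cat and Wfdc2 exceed 80% of Duoxa2+ Duox2+ cells. The ratio of Duoxa1 over the same cluster rests on 2 UMIs in the cluster.

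Of 15 genes that handle peroxide and glutathione, 13 (86.7%, against 27.9% of all genes) were 2-fold or more above all other cells. Above the same cluster were 4 (26.7%, against 6.05%). Median log2 ratios were 1.83 and 0.62 against 0.48 and 0 for all genes. Gclm and Gclc, the subunits of the enzyme that starts glutathione synthesis, were 3.71-fold and 2.81-fold over the same cluster, and glutathione reductase (Gsr) 3.6-fold. Glutathione peroxidase 1 (Gpx1), found in 86% of the cells, was level with the same cluster (1.03-fold). Gpx3 had 0 UMIs.

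Detoxifying enzymes had the highest median ratio over the same cluster among the 13 lists. Of 20 measured, 16 (80%, against 27.9% of all genes) were 2-fold or more above all other cells. Above the same cluster were 11 (55%, against 6.05%). Median log2 ratios were 2.21 and 1.2. Cyp2f2 was 17.7-fold above all other cells and 2.32-fold above the same cluster. Its level per gland ran from 0 to 10260 CPM with a median of 4042, and the gland at 0, double-mutant P90 replicate 3, contributed 1 cell. The glutathione transferases Gsta3, Gstp1, Gstm1 and Gsta4 were 14.4-fold, 4.39-fold, 3.99-fold and 1.97-fold over the same cluster, while Fmo1 and Gstm2, with 4 and 8 UMIs, were at 0.615-fold and 0.704-fold of it. Cyp2e1 and Cyp4b1 had 0 UMIs.

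Of the peroxidase system itself, 7 genes were measured apart from Duoxa2 and Duox2. Of these, 2 were 2-fold or more above all other cells (28.6%, against 27.9% of all genes) and 2 below (Lpo and Ano1). Those above were Slc5a5 and Cftr, the chloride channel that can carry thiocyanate. Against the same cluster, 2 of the 7 were above, among them Slc5a5 (28.6%, against 6.05% of all genes), and 0 below. Lpo, which makes use of the peroxide, had 1 UMI in the 93 cells and was at 149.9 CPM in all other cells. The anion exchanger gene Slc26a4 and the oxidases Nox1 and Nox4 had 0 UMIs, and Cyba, a subunit of other NADPH oxidases, had 13 UMIs, 3.08-fold over the same cluster.

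Keratin, junction and ion transport genes differed more from all other cells than from the striated duct Klk1+-like cluster, with median log2 ratios over that cluster of 0.67 and 0.58. Of 15 keratin and junction genes, 13 (86.7%, against 27.9% of all genes) were 2-fold or more above all other cells. Above the same cluster were 3 (20%, against 6.05% of all genes): Krt19, Krt7 (3.2-fold) and Cldn23 (5 UMIs). Cldn10 was below the same cluster, with 3 UMIs. Of 18 ion and water transport genes, 11 (61.1%) were above all other cells and 4 (22.2%) above the same cluster (Scnn1a, Fxyd3, Slc4a4 and Tmprss2). The sodium pump subunit Atp1b1 was detected in 98.9% of the cells at 11.1-fold over all other cells but 1.84-fold over the same cluster. Aqp5, the acinar water channel, had 2 UMIs.

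Secretory products of granular and intercalated ducts were mostly lower. Of 13 androgen-regulated and secretory duct genes, 10 were 2-fold or more below all other cells and 1 above (Klk1), and 6, among them Egf, Ren1, Klk1b22, Smgc and Esp18, were below the same cluster. Klk1 was 7.73-fold over all other cells but 0.612-fold of the level in the same cluster. Per gland Klk1 ran from 0 to 208500 CPM (median 104800), above the other cells of the gland in 21 of 23 glands and above the same cluster in 5 of 23. Egf and Ren1, products of granular ducts, had 4 and 5 UMIs. Smgc was at 239 CPM against 5929 CPM in the same cluster. Secretoglobin Scgb1b27 was at 6499 CPM, 0.0937-fold of all other cells and 0.821-fold of the same cluster.

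Of all genes, 27.9% were 2-fold or more above all other cells and 6.05% above the same cluster. Among 17 mucosal defence genes, 4 (23.5%) were 2-fold or more above all other cells and 7 below, while 4 were above the same cluster and 1 below (Wfdc18). Wfdc2, the chemokine Cxcl17 (81.7% of cells, 2.5-fold over the same cluster), Reg3g and Ltf were the 4 above in both comparisons. Reg3g and Ltf rested on few cells (5.38% and 6.45%), and both lead the luminal Clu+ tumor-like cluster, which held 5 of the Duoxa2+ Duox2+ cells. Of 9 surface mucin and glycoprotein genes, 5 were above all other cells and 2, among them Muc1, above the same cluster. Of 18 epithelial transcription factor genes, 8 were above and 3 below all other cells. Over the same cluster 1 was above, the Notch target Hes1 at 4.07-fold (35.5% of cells), and 1 below, Sox9 at 0.479-fold.

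In the remaining lists, 9 of 10 immediate early genes (90%, against 27.9% of all genes) were 2-fold or more above all other cells and 0 above the same cluster. Fos was found in 93.5% of the cells at 1.29-fold over the same cluster. Of 14 genes of MHC class II and epithelial immunity, 0 were above and 7 below all other cells. Above the same cluster were 3 MHC class II genes (H2-Aa, H2-Ab1 and H2-Eb1). Immune cell markers had a UMI in 4 of the 93 cells, and 1 of the 93 was in the immune-like cluster. The part of such cells in these 3 genes was not tested. With 10 CPM added, no gene of 10 ribosomal protein and 10 cell cycle genes differed by 2-fold. A gene under 10 CPM in the comparison cells could not be called lower. Mki67 and Top2a, which mark dividing cells, had 0 UMIs in 93 cells (up to 3.23%), against 1.63% and 1.23% of other cells.

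**Figure D4:**
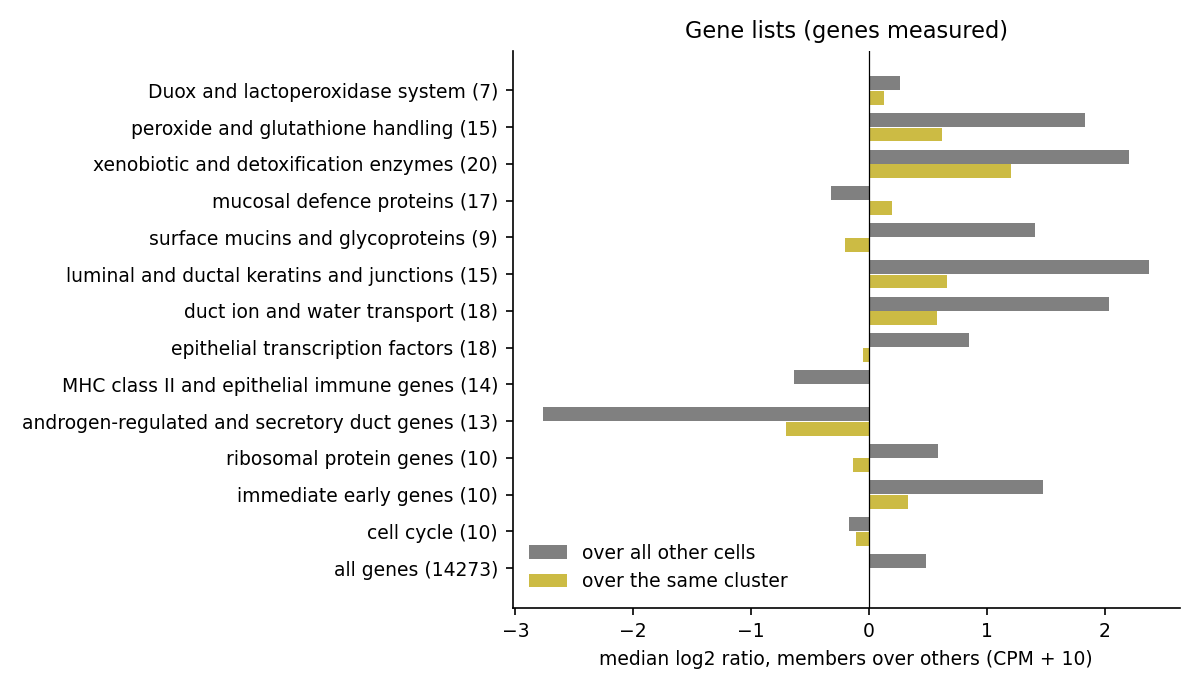
Median log2 ratio of CPM (10 CPM added) in Duoxa2+ Duox2+ cells (members) over all other cells and over the other cells of the striated duct Klk1+-like cluster, for 13 gene lists and for all genes, with the number of genes measured in brackets. Over all other cells the keratin and junction (2.38), detoxification (2.21), ion transport (2.04) and peroxide (1.83) lists lie furthest to the right, and over the same cluster the detoxification list does (1.2).

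Markers of granular duct, luminal Dcpp+, luminal Clu+ tumor and acinar cells were in 33 or more of the 93 cells, at levels below all other cells. Those of non-epithelial cells were found in few cells. Other duct and mucous markers were rarer. Intercalated duct markers (1 of 4 detected) were in 22 cells and duct progenitor markers (4 of 5) in 7. The excretory duct marker was in 4 cells and mucous Muc19+ markers (1 of 4) in 3. Granular duct markers (5 of 5 detected) had a UMI in 75 of the 93 cells, with a summed level of 3217 CPM against 5146 CPM in all other cells and 4945 CPM in the same cluster. Luminal Dcpp+ markers (3 of 3) were in 51 cells at 2907 CPM, against 88290 and 3109 CPM, and luminal Clu+ tumor markers (3 of 3) in 33 cells at 853 CPM, against 7247 and 1529 CPM. All 5 basal and all 5 T/NK markers were at 0 UMIs, of which Krt14 and Krt5 had been set to 0 by the rule. Of 6 immune markers, 5 were detected, in 4 cells, with a summed level of 123 CPM against 779 CPM in all other cells and 49.2 CPM in the same cluster. Of 5 endothelial markers, 4 were detected in 2 cells, with a summed level of 77.5 CPM against 80.4 CPM in all other cells and 8.78 CPM in the same cluster. Detected were also 2 of 5 myoepithelial markers in 2 cells, and 1 of 5 fibroblast and 1 of 4 pericyte markers in 1 cell each. Acinar markers (3 of 5 detected, in 64 cells) were at 4890 CPM against 48540 CPM in all other cells and 4890 CPM in the same cluster, nearly all of it Prol1. Transcripts of this kind reach many droplets as free RNA, and their part in the values was not tested. EYFP had a UMI in 9 of the 93 cells (9.68%, 95% Clopper-Pearson interval 4.52% to 17.6%) and in 11.6% of other cells. By genotype, EYFP was in 6 of 39 control and 3 of 54 double-mutant cells. Cre had 0 of 93, against 0.8% of other cells.

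The first comparison asked whether Duoxa2+ Duox2+ cells were more or less frequent in double-mutant glands. Their mean share was 0.361% ± 0.287 (SD, n = 12) in control and 0.428% ± 0.363 (SD, n = 14) in double-mutant glands. The difference of 0.067 percentage points was smaller than the spread between glands (two-sided permutation test with 100000 resamples, p = 0.61, adjusted over 5 share tests 0.982). Within the 19 glands of library batches, as numbered in the labels, that held both genotypes, it was 0.243 points (exact permutation test, p = 0.155). Cells were shallower in double-mutant glands, with a median of 1151 against 2062 UMIs. Cells were also reduced to 500 or 1000 UMIs, with shallower cells left out. At 500 UMIs 20371 of 23346 cells stayed, 50 of them Duoxa2+ Duox2+. The difference was then 0.0678 points (permutation test, p = 0.394). At 1000 UMIs 8381 of 10743 control and 6948 of 12603 double-mutant cells stayed, 62 of them Duoxa2+ Duox2+. There it was 0.198 points (permutation test, p = 0.164). These are shares of the deeper cells, and more double-mutant than control cells were lost. Relative to cells with an epithelial transcript, shares were 0.476% and 0.728% (permutation test, p = 0.184). Fewer cells of this type and less RNA per cell cannot be told apart by detection alone.

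By stage, control glands had 0.348% ± 0.277 at P40 and 0.374% ± 0.322 at P90 (SD, n = 6 each; exact permutation test, p = 0.874). Control libraries of P40 and P90 came from separate batches, so that age and batch effects cannot be told apart in them. Double-mutant glands had 0.544% ± 0.418 at P40 and 0.311% ± 0.283 at P90 (SD, n = 7 each), a difference of -0.2325 percentage points (P90 minus P40) that was within the spread between glands (exact permutation test, p = 0.235, adjusted 0.779). Within batches it was -0.1005 points (exact permutation test over 9 glands, p = 0.75). The median depth of a cell also differed between these stages, at 1570 and 766.5 UMIs. Among cells with 500 or more UMIs, each reduced to 500, the stage difference was -0.0265 points (exact permutation test, p = 0.828). Among those with 1000 or more, reduced to 1000, it was -0.132 points (exact permutation test, p = 0.542). The change with stage did not differ detectably between genotypes (-0.259 points, permutation test, p = 0.322).

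By labelled sex, control glands had 0.272% ± 0.197 in males and 0.449% ± 0.351 in females (SD, n = 6 each; exact permutation test, p = 0.312, adjusted 0.779). Double-mutant glands had 0.425% ± 0.281 in 6 males and 0.43% ± 0.435 in 8 females (exact permutation test, p = 0.982). The highest gland of each genotype, at 0.907% and 1.2%, was female, and the ranges overlapped in both. The sex difference was not detectably unlike between genotypes (0.171 points, permutation test, p = 0.504).

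Genes were then compared within the Duoxa2+ Duox2+ cells, by adding their UMIs per gland. Only 7 glands had 5 or more of these cells, 2 control and 5 double-mutant, with between 8155 and 27031 UMIs each. At this depth 151 genes could be tested, and 0 of 151 differed by genotype, stage or sex at an adjusted p under 0.05 (edgeR, 0% called in each). Unadjusted p-values under 0.05 numbered 4, 13 and 6, and DESeq2 also called 0 (3, 9 and 4 unadjusted). Of the lists, between 0 and 8 genes each entered the test, most of them immediate early genes (8), keratins and junctions (5) and secretory duct genes (5), with 0 called. Over glands with 3 or more of the cells, 2 of 151 genes were called by stage. These were Dcpp1 (log2 fold change of P90 over P40 -8.25, edgeR adjusted p = 1.01e-05) and Dcpp2 (-5.5, edgeR adjusted p = 0.00073). Dcpp1 was found in 61.8% of P40 and 7.89% of P90 cells. It was above the other cells of the gland in 0 of 23 glands, and the part of free RNA was not tested.

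The levels of Duoxa2 and Duox2, which chose the cells, are given for these 7 glands as a description. Duoxa2 was at 6443 and 2733 CPM in control P40 replicate 6 and P90 replicate 2, and at 3309, 9276, 5512, 2668 and 3066 CPM in double-mutant P40 replicates 1, 3, 4 and 7 and P90 replicate 6. Duox2 was at 1324 and 1892 CPM in the control glands and at 2757, 1868, 1850, 1218 and 2943 CPM in the double-mutant glands in the same order. The values of the 2 genotypes overlapped for both genes. Cyp2f2, which the rule did not use, was at 3442 and 5571 CPM in control and at 1875, 2126, 2516, 4118 and 5273 CPM in double-mutant glands, with a log2 fold change of double-mutant over control of 0.82 (SE 0.75, edgeR adjusted p = 0.937).

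Catalase was high in all 7 glands. It was at 2383 and 5887 CPM in control and at 4301, 2770, 3995, 2204 and 2330 CPM in double-mutant glands, and in the same cluster at 113 to 684 CPM. Its log2 fold change by genotype was -0.82 (SE 0.77, edgeR adjusted p = 0.937). The smallest unadjusted p by genotype were those of Plet1 (-2.4, SE 0.86), S100a6 (-3.27, SE 1.2) and Klk1b16 (-10.46, SE 3.87), each with an adjusted p of 0.937. By stage they were those of Scgb1b27 (-2.34, SE 0.6), Ptma (1.67, SE 0.47) and Malat1 (2.67, SE 0.78), adjusted p = 0.445, where P90 was 1 control and 1 double-mutant gland. By sex they were those of B2m, Lgals3 and Klk1b16 (adjusted p = 0.986). No male control gland had 5 of the cells, so sex and genotype were only partly separable, and the fit had 2 residual degrees of freedom. Without the 2 libraries whose sex-linked genes went against their labels, 1 of which is among the 7, 2 of 182 genes were called in each comparison with 1 residual degree of freedom.

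Klk1b16, a kallikrein gene of androgen-dependent granular ducts, was called in a fit over all 23 glands with such a cell, which was added after the data had been seen. There 66 genes were tested. By sex 2 genes were called (3.03%), Klk1b16 with a log2 fold change of 3.18 in males (SE 0.67, edgeR adjusted p = 0.00391) and Klk1b26 with 3.09 (SE 0.73, adjusted p = 0.00745), and by genotype 1 (1.52%), Klk1b11 with -2.11 (SE 0.49, adjusted p = 0.0118). Without the 2 libraries with mismatched sex genes, Klk1b16 was at 3.37 (SE 0.64, edgeR adjusted p = 0.00106) by sex. With the replicate number as a block, the calls by sex were lost (0 of 108 genes), Klk1b16 being at 1.24 (edgeR adjusted p = 0.894). Replicate numbers do not pair the glands, so this fit cannot decide whether the calls by sex hold. In Duoxa2+ Duox2+ cells of male control glands, Klk1b16 was at 10160, 11270 and 2331 CPM (P40 replicates 2, 3 and 5) and at 3503 and 8146 CPM (P90 replicates 3 and 5), whereas in the 6 female control glands it was between 392 and 1367 CPM. The sexes did not overlap among controls. In double-mutant glands labelled male it was at 221, 8696, 0, 741 and 123 CPM, and in those labelled female between 0 and 1138 CPM, so that the sexes overlapped. The level in the other cells of the same male control glands was also high, between 1349 and 8148 CPM, against 19.7 to 324 CPM in female control glands. The part of transcripts from other cells in these values was not tested. Klk1b genes are near-identical paralogs, and reads could be split between them in counting.

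CITE-seq, which reads surface proteins by antibody tags with the RNA, was made from 4 further glands at P70, none of whose cells are among the 93. The same rule, with cells kept under 2500 genes, found 8 Duoxa2+ Duox2+ cells among 2535. Of these 4 were from the female control gland (0.549% of its cells), 2 and 2 from the double-mutant glands (0.313% and 0.402%), and 0 from the male control gland, where a count of 0 allows up to 0.446%. They held 4 to 17 Duoxa2, 1 to 17 Duox2 and 1 to 21 Cyp2f2 UMIs, so that Cyp2f2 was found in 8 of 8 cells against 8.51% of others. Gp2, Duox1, Lpo, EYFP, Cre, Mki67 and Top2a were at 0 UMIs.

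Of the 25 genes that led in Drop-seq, 22 had a higher CPM in the 8 cells than in other CITE-seq cells of all types. Among 7944 genes with 50 or more UMIs in CITE-seq, 39% did. Several of the 25, such as Muc1 with 1 UMI, were below that limit, so the shares cover unlike sets of genes. Cat was found in 7 of 8 cells at 4017 CPM against 38.5 CPM, Wfdc2 in 8 of 8 at 2859 against 73.9 CPM, Scnn1a in 7 of 8 and Ces1d in 6 of 8. Slc5a5 had 4 UMIs in 3 of the 8 cells and 0 in 2527 other cells. The 3 genes that were not higher, Duoxa1, Hpn and Gsta3, had 0 UMIs in the 8 cells, in which 1 UMI is worth 68.1 CPM. In 1 double-mutant gland the 2 cells had barcodes that differed at 1 base, and 1 of them had only 2 tag counts. They may be the same cell, and the 22 genes were also higher without it.

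Of 61 antibody tags, 4 that were higher in the 8 cells are described without a test. Ly6A/E, a surface protein of many progenitor and immune cells, made up 7.6% of a cell's tags on average against 1.11% in other cells, a 6.84-fold ratio. A double-mutant cell at 33.7% raised this mean, and the median of the 8 cells was 5.79%. A control cell, at 0.595%, was below the mean of other cells. EpCAM, an adhesion protein of epithelium, was at 13.8% against 2.94%, a 4.68-fold ratio. In the control gland the 4 cells were at 7.28%, 7.44%, 28.5% and 31.1% EpCAM, and in the double-mutant glands the cells were at 6.7% and 15.2% and at 14% and 0. The cell at 0 was the one with 2 tags, and both proteins had a count in the 7 others. CD104, the integrin beta 4 subunit, was at 5.62% against 1.61%, again with a count in 7 of 8 cells. CD38 was at 8.21% against 2.08%, but without the cell with 2 tags its ratio was 1.08. Whether tag counts are UMIs or reads was not given in the sources used here.

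**Figure D5:**
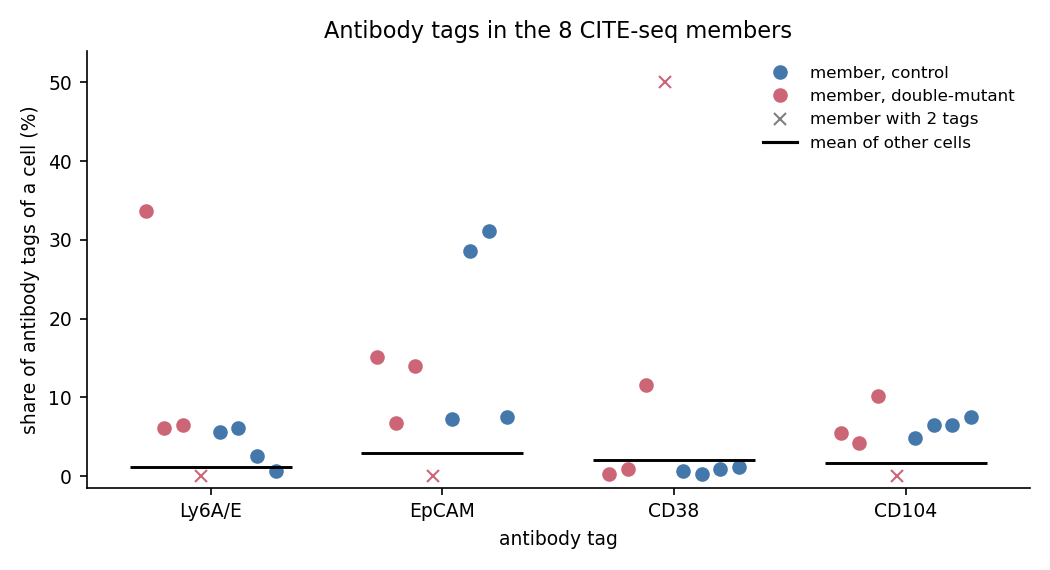
Share of antibody tags (% of a cell's tags) in each of the 8 Duoxa2+ Duox2+ cells of the CITE-seq glands for Ly6A/E, EpCAM, CD38 and CD104, by genotype, with the mean of all other cells as a line. A cross marks the cell with only 2 tags. All 7 other cells lie above the line for EpCAM and CD104, and 1 of 7 does for CD38. For Ly6A/E a control cell at 0.595% lies below the line.

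In bulk RNA of whole female glands, 1 control at P70 and 1 double-mutant at P100, both genes were detected without sorting. Duox2 had 1685 reads in the control (95% exact Poisson interval 1605 to 1767) and 1441 in the double-mutant gland (1368 to 1517), of 34515744 and 34729551 counted reads. Duoxa2 had 410 (371 to 452) and 347 (311 to 386). Per length, both genes were at the same level, 6.69 and 6.55 TPM in the control and 5.77 and 5.59 TPM in the double-mutant gland. Duox1, at 3 and 4 reads, was near 0 in whole glands as in the single cells. Duoxa1 was at 46 and 39 reads. Gp2 had 0 and 189 reads, and Cyp2f2 6564 and 3844. With 1 gland of each genotype at different ages these values have no replicate check.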

How the data were processed

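Count tables of UMIs per gene and cell barcode were deposited by the authors for 26 Drop-seq and 4 CITE-seq glands, with counts of 61 antibody tags, and gene counts for 2 bulk glands. The authors aligned reads with STAR to mm10 with Cre and EYFP added, and counted bulk reads with featureCounts. The deposited counts are not normalized. Cells needed 100 or more genes and under 15% mitochondrial UMIs, CITE-seq cells also under 2500 genes. Duoxa2+ Duox2+ cells, gene lists and tests were chosen with earlier results of these data known.

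Shares were compared over glands by two-sided permutation tests, adjusted over 5 tests. UMIs of Duoxa2+ Duox2+ cells were added per gland and tested with edgeR 4.0.16 (quasi-likelihood, Benjamini-Hochberg) with genotype, stage, sex and the log2 number of cells as terms, in glands with 5 or more such cells. Replicates are separate glands. Clusters came from Leiden (leidenalg 0.10.2). Ratios over other cells were described without a test, and a 2-fold call used CPM plus 10 over genes with 50 or more UMIs. TPM in bulk was computed here from counts and gene lengths. Sequences and positions are from RefSeq (GRCm38.p6). The edgeR step was tested on simulated data.

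Genes named are the markers and list members with up to 4 examples, the 25 leading genes by CPM ratio among those in 10% or more of the cells and higher in at least 50% of the glands with 5 or more cells, called genes or the 3 smallest p per comparison, the reporter and proliferation genes, and the 5 leading tags. Some of these genes and tags are not reported here. Alternatives were the normalization, filters, thinning to 500 or 1000 UMIs, other cell rules, batches, the replicate number, a binomial mixed model, other clusterings, DESeq2 1.42.0 and leaving out each gland. Precision of counts covers counting error only. The antibody-tag unit and the doublet rate are not given in the sources used here. No doublet caller was run.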

Additional observations from a re-analysis of the deposited data

Results flagged for a closer look

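Among the 5 double-mutant glands with 5 or more Duoxa2+ Duox2+ cells, 3 genes had 1 gland far from the others by Dixon's test, of 18 groups tested. Chance flags about 1 in 20 groups of genes chosen without these values. All 3 genes had been named for a small p in a fit that holds these glands, so that rate does not apply to them. Klk1b16, a kallikrein of granular ducts, was at 8696 CPM in P40 replicate 3, a male gland whose other cells were at 2063 CPM, against 0 to 1110 CPM in the other 4. Malat1, a nuclear RNA, was at 106900 CPM in P90 replicate 6, against 6699 to 27140 CPM, and the other cells of that gland and of its striated duct Klk1+-like cluster were at 35300 and 79980 CPM. Ptma, a chromatin-associated protein gene, was at 2085 CPM in the same gland, against 555 to 882 CPM, with 571 and 1259 CPM in those other cells. P90 replicate 6 was the only double-mutant P90 gland in the stage comparison. The part of depth or RNA quality in these values was not tested.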

How the results depend on the processing

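No share test passed the threshold under any alternative run. The genotype difference stayed above 0 in all but 1, the cells with Duoxa2 or Duox2 or both (-0.0206 percentage points), and ran from 0.00778 to 0.117 when each gland was left out in turn. The stage difference in control glands was -0.0796 with cells thinned to 1000 UMIs and from -0.0807 to 0.131 with 1 gland left out, below 0 without P40 replicates 4 or 5 or P90 replicates 2 or 5. It was 0.709 (exact permutation test, p = 0.102) with Duoxa2 or Duox2 or both. In double-mutant glands it ran from -0.3 to -0.124 with 1 gland left out and was -0.0265 with cells thinned to 500 UMIs and -0.132 with 1000. With 1 gland left out, the sex difference ran from -0.242 to -0.0847 in control and from -0.0666 to 0.105 in double-mutant glands. In control glands it was -0.31 with Krt14, Krt5 and Bmp4 cells kept (exact permutation test, p = 0.0909), -0.377 with either gene and -0.337 within replicate numbers as a block. In double-mutant glands it was above 0 with cells thinned to 500 (0.201) or 1000 UMIs (0.214), over epithelial cells (0.0657), with Krt14, Krt5 and Bmp4 cells kept (0.0477), with either gene (0.198), without the mitochondrial limit (0.0161), within replicate numbers as a block (0.314), and in the mixed model (0.0815 log odds). The causes were not tested.

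Counts of called genes by genotype, stage and sex were 2, 1 and 3 with no filter on low counts, and 2, 2 and 2 without the 2 libraries with mismatched sex genes. In glands with 3 or more cells they were 0, 2 (Dcpp1 and Dcpp2) and 2 (Dcpp1 and Klk1b16). Over every gland with a cell they were 1, 0 and 2. There they were 1, 0 and 3 without the 2 mismatched libraries, and 10, 2 and 0 with the replicate number as a block. With 1 gland left out they ran from 0 to 2, 0 to 2 and 0 to 4, above 0 without double-mutant P40 replicate 1 (2, 2 and 2) or P90 replicate 6 (stage 1, sex 4). Klk1b16 by sex was called in 5 alternatives and without either of these glands, not over every gland with the block (1.24), and its log2 change ran from 6.9 to 19.48 with 1 gland left out. S100a6 by genotype was 0.74 with 3 or more cells, 1.34 over every gland and 2.5 with the block, and B2m and Lgals3 by sex were -0.19 and -1.06 with the block. Replicate numbers do not pair the glands: deviations of same-numbered glands correlated from -0.372 to 0.55, over 0.1 in 17 of 37 pairs. In other clusterings 65 (resolution 1.5), 43 (1000 genes), 63 (20 components) or 85 (rule genes kept) of the 93 cells were in the leading cluster. The block in 7 glands and a limit of 10 cells could not be fitted, and no cell had all 3 markers. With 93 cells, small changes were not detectable at this depth.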
